A study of Mus musculus with 180 samples.

Results

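Keratins are the intermediate filament proteins of epithelial cells, and 20 of the 13820 genes in the expression table belonged to them or to the keratin-associated proteins. Members were taken by symbol, as every gene named Krt or Krtap followed by a digit, less 1 gene that is not reported here. They comprised 10 type I keratins (Krt10, Krt13, Krt14, Krt15, Krt16, Krt17, Krt18, Krt19, Krt23 and Krt222), 9 type II keratins (Krt1, Krt5, Krt6a, Krt7, Krt8, Krt77, Krt78, Krt79 and Krt80) and 1 keratin-associated protein (Krtap3-2). Krt2 and Krt6b had no row and were not analysed here. In the mouse genome (mm10) the 9 type II genes and Krt18 lay on chromosome 15, and the other 10 members lay on chromosome 11.

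RNA was sequenced from 15 tissues of each of 12 female mice, 6 weeks old, 12 h after injection. The PBS group (mice 1 to 4) and the LPS group (mice 5 to 8) were C57BL/6J, and the LPS group received lipopolysaccharide at 5 mg/kg. The TNF-deficient LPS group (mice 9 to 12) carried the B6.129S-Tnftm1Gkl/J genotype, which lacks tumour necrosis factor, and received the same dose. All mice were perfused with PBS containing EDTA before collection. The series has no TNF-deficient group given PBS. What the allele or its strain background does to resting tissue and what it does to the response cannot be told apart here.

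A keratin filament is built from pairs of 1 type I and 1 type II protein. Dividing keratinocytes of the basal layer make Krt5 with Krt14 and Krt15, and cells that leave that layer switch to Krt1 with Krt10. Simple epithelia, which line the gut, kidney tubules and airways, instead use Krt8 or Krt7 with Krt18 or Krt19. Krt6a, Krt16 and Krt17 belong to hair follicles and appendages at rest and are known to be induced in the epidermis after wounding. Lipopolysaccharide is a bacterial cell wall component that triggers systemic inflammation, and tumour necrosis factor is one of the first cytokines released in that response.

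The values are the authors' normalized expression signal. Dividing each library by the signal of its smallest step returned whole numbers for 100% of values in every library (tolerance 0.1), so the counts behind each value were known. Libraries of skin, kidney, lung, small intestine, colon and thymus held 493399 to 2496897 counts, and skin libraries held 848133 to 2040980. In these 6 tissues, 1 count corresponded to a signal of 0.428 to 1.72. Expression levels of the lung marker list (alveolar type 2, summed signal 39193 to 42986 in PBS mice), the kidney list (proximal tubule, 11847 to 14304), the small intestinal list (enterocyte, 23634 to 28244) and the thymic list (thymocyte, 6123 to 6732) matched the labelled tissues. In skin the keratinocyte list summed to 10094 to 13080 in PBS mice, and a list of skeletal muscle genes summed to 14996 to 19024 in the same libraries. Tests used limma on log2(signal + 1), which understates changes of genes with low signal, and p-values were adjusted by the Benjamini-Hochberg method over all genes tested in a tissue. Each group had n = 4 mice throughout.

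The promoters of 4 skin keratins are shown because these genes moved in different ways in skin, as described next: Krt5 and Krt79 were higher in TNF-deficient LPS mice than in LPS mice, whereas no difference was called for Krt10 and Krt77. Each sequence is the 250 bases upstream of the RefSeq transcript start (GRCm38.p6), read 5′ to 3′ on the minus strand, with motif matches in capitals. The Krt5 window is chr15:101712906-101713155, the Krt79 window chr15:101940325-101940574, the Krt10 window chr11:99389365-99389614 and the Krt77 window chr15:101869706-101869955.
Krt5: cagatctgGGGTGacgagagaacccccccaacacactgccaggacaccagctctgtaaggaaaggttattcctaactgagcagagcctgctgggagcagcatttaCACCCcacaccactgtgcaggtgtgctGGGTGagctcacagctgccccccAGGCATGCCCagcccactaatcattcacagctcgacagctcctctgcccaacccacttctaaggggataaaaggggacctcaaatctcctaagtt
Krt79: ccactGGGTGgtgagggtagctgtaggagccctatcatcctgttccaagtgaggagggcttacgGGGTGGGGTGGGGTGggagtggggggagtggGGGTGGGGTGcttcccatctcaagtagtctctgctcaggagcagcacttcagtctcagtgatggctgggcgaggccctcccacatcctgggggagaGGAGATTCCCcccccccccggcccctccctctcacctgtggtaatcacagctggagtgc
Krt10: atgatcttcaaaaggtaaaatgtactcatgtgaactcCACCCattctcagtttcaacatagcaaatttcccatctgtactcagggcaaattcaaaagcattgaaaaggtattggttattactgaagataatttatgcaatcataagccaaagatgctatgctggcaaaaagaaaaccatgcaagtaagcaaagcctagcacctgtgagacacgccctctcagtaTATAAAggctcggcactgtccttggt
Krt77: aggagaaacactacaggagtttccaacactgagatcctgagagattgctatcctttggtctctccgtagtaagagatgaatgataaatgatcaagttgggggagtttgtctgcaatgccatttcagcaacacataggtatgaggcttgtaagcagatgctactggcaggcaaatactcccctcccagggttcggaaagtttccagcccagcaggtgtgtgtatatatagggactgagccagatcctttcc

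The motifs searched, on both strands, were the KLF box (CACCC or GGGTG), the AP-1 site (TGANTCA), the TFAP2 site (GCCNNNGGC), the TATA box (TATAAA), and the NF-kB and p63 sites by their consensus names. In the Krt5 window, 3 KLF boxes and 1 p63 match were found, the latter starting 95 bases before the start site. Krt79 held 6 KLF boxes, most of them side by side in runs, and 1 NF-kB match that began 59 bases before the start site. Krt10 held 1 KLF box and a TATA box 26 bases before the start site, and the Krt77 window held none of the 6 motifs. RefSeq promoters were at hand for 12 of the 20 members and for 27025 genes in all, with 1 start searched per gene, the first listed. A KLF box was present in 9 of these 12 (75%) and in 51.3% of all promoters. An NF-kB match was present in 3 of 12 (25%; Krt14, Krt23 and Krt79) and in 3.75% of all. The p63, AP-1, TFAP2 and TATA motifs were each present in 2 of 12 (16.7%), against 7.18%, 6.87%, 13.6% and 13% of all promoters. A match describes these letters only. Krt1, Krt6a, Krt15, Krt16, Krt17, Krt19, Krt80 and Krt222 had no entry.

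In PBS mice skin held by far the most keratin signal. The mean signals of the 20 members summed to 16535 in skin, 4896 in colon, 3178 in small intestine, 1781 in white fat, 908 in thymus, 752 in liver, 680 in lung and 411 in kidney. Basal and suprabasal keratins made up nearly all of it in skin, whereas Krt8 and Krt19 led in the gut. Krt8 averaged 3383 ± 319 (SD, n = 4) in colon and 2270.0 ± 229 in small intestine, and these groups did not overlap. White fat came next with 615 ± 115, then thymus with 317 ± 35.2 and liver with 314 ± 24.5, whose ranges overlapped, then lung with 177 ± 8.61 and kidney with 127 ± 15.7. Krt7, a simple keratin of ducts and airways, was instead highest in lung, at 143 ± 9.33, above white fat at 93.5 ± 16.6, colon at 76.6 ± 7.11, kidney at 69.98 ± 3.505 and small intestine at 63.6 ± 7.86, and each of the last 4 overlapped its neighbour in this order. Krt5 averaged 1431 in skin and 70.4 in thymus, whose medullary epithelium is known to carry it.

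LPS lowered most epidermal keratins in skin. Of the 19 members tested there, 10 fell and 1 rose between PBS and LPS mice, where 8.46% of all 13379 genes tested were called lower and 9.46% higher. The median difference of the 19 was −0.40 on the log2 scale, against −0.01 for all genes. Both members of the basal pair and all 3 leading suprabasal keratins fell, and Krt8 was the member that rose. Less RNA per keratinocyte and fewer keratinocytes cannot be told apart in bulk tissue.

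Krt1, the type II keratin of the spinous layer, changed the most. Its signal was 279, 331, 337 and 222 in the PBS mice, 46.4, 39.2, 35.4 and 41.0 in the LPS mice, and 46.3, 35.0, 39.3 and 45.3 in the TNF-deficient LPS mice. Both LPS-treated groups lay far below every PBS value and overlapped each other. These values rest on 1905 counts in the PBS libraries together, 247 in the LPS libraries and 276 in the TNF-deficient ones. Krt1 fell by 2.81 in LPS mice (SE 0.15, adjusted p = 3.05e-11), and the TNF-deficient LPS mice differed from the LPS mice by 0.03 (95% interval −0.28 to 0.34, adjusted p = 0.949).

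Krt10, the type I partner of Krt1, was the most abundant member. It read 6805, 8350.0, 8049 and 6674 in PBS mice, 2503, 2923, 2199 and 2481 in LPS mice, and 2504, 3225, 2537 and 4583 in TNF-deficient LPS mice. All treated mice were below all PBS mice, and mouse 12 stood highest among the TNF-deficient mice. The fall under LPS was 1.56 (a log2 difference of −1.56, SE 0.17, adjusted p = 1.25e-06). The genotype difference under LPS was 0.31 (95% interval −0.05 to 0.67, adjusted p = 0.394). Krt77, a type II keratin of the suprabasal layer and sweat ducts, followed Krt10 closely, with 3153, 3945, 3511 and 2934, then 1058, 1199, 1163 and 1179, then 1080.3, 1554, 1071 and 2258. Its differences were −1.55 (SE 0.18, adjusted p = 2.59e-06) for LPS and 0.31 (95% interval −0.07 to 0.69, adjusted p = 0.425) for genotype. The 2 genes lie on different chromosomes. Within a library the ratio of Krt10 to Krt77 signal stayed at 2.12 to 2.29 in PBS mice, 1.89 to 2.44 in LPS mice and 2.03 to 2.37 in TNF-deficient LPS mice.

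The basal keratins fell too, but their levels differed between the 2 LPS-treated genotypes. Krt5 signal was 1413, 1650.1, 1414 and 1248 in PBS mice and 285, 326, 289 and 321 in LPS mice. In TNF-deficient LPS mice it was 513, 519, 645 and 594, so that the 3 groups did not overlap anywhere. Krt5 fell by 2.22 with LPS (SE 0.12, adjusted p = 3.05e-11) and was higher by 0.89 in TNF-deficient LPS mice (SE 0.12, adjusted p = 0.000295). Krt14, its type I partner, read 1161, 1493, 1281 and 1102 in PBS mice, 331, 294, 406 and 420.0 in LPS mice, and 537, 521, 797 and 615 in TNF-deficient LPS mice. These groups were also separate. Its differences were −1.80 (SE 0.15, adjusted p = 2.51e-08) and 0.76 (SE 0.15, adjusted p = 0.00629). Krt15, a second type I keratin of basal cells and the follicle bulge, fell less, from 1501, 1579, 1483 and 1157 to 1005, 1326, 601 and 812 (log2 −0.66, SE 0.18, adjusted p = 0.0105), with 1 LPS mouse (mouse 6) inside the PBS range. In TNF-deficient LPS mice Krt15 was 1368, 1494, 1349 and 1477, above all LPS mice (0.66, SE 0.18, adjusted p = 0.0442). That last call ended in 10 of 14 alternatives, among them edgeR and leaving out any of mice 5, 7, 8, 9, 10, 11 or 12 (adjusted p 0.00241 to 0.146 over the 14).

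**Figure D1:**
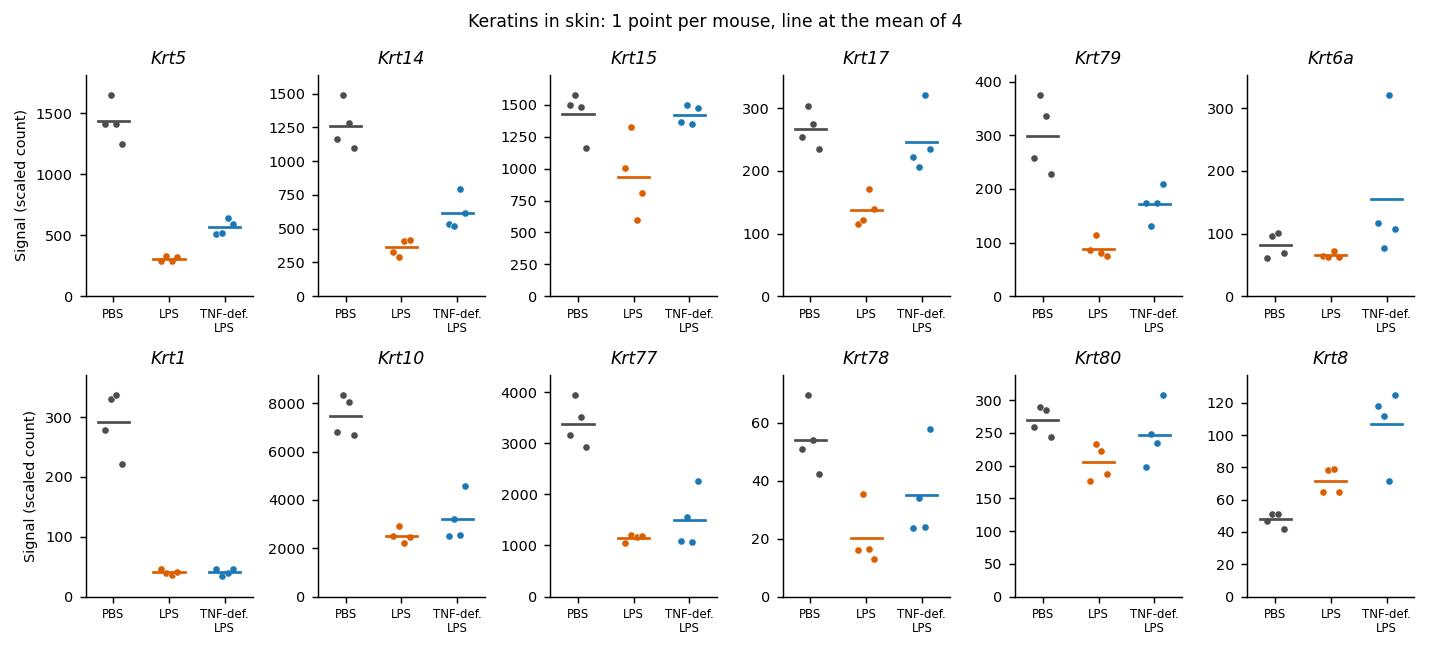
Signal of 12 keratins in skin (vertical axes, linear and starting at 0) for PBS, LPS and TNF-deficient LPS mice (horizontal axes), 1 point per mouse with a line at the mean of 4. Krt5 takes 3 separate levels (means 1431, 305 and 568), whereas Krt1 has 2 (292, then 40.5 and 41.5).

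Krt79, a type II keratin of the hair follicle opening and sebaceous duct, and Krt17, a type I keratin of the follicle's outer layers, both followed the basal pattern. Krt79 read 257, 375, 336 and 227 in PBS mice, 86.5, 114, 80.9 and 74.5 in LPS mice, and 174, 131, 173 and 209 in TNF-deficient LPS mice. The LPS mice lay below both other groups (−1.73, SE 0.17, adjusted p = 2.39e-07, and 0.94, SE 0.17, adjusted p = 0.00366). Krt17 read 255, 304, 276 and 236, then 115, 122, 171 and 139, then 222, 206, 322 and 235. It fell by 0.97 with LPS (SE 0.15, adjusted p = 5.91e-05) and was higher by 0.84 in TNF-deficient LPS mice (SE 0.15, adjusted p = 0.00323), whose values overlapped those of PBS mice. Krt14, Krt16 and Krt17 share sequence near their 3′ ends: of the 50-base words in the last 500 bases of the transcript, 9.53% of Krt14, 9.53% of Krt17 and 16.9% of Krt16 also occurred in another gene. Their levels are uncertain to the extent that counting could have split such reads, and 16 of the 20 members shared no such word.

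Suprabasal keratins of lower signal also fell. Krt78 dropped from 50.8, 69.5, 53.8 and 42.2 to 15.9, 35.3, 16.3 and 13.0 with LPS (−1.47, SE 0.28, adjusted p = 0.000622) and read 23.8, 33.9, 24.0 and 57.7 in TNF-deficient LPS mice. Between the LPS-treated genotypes Krt78 was not called. Without mouse 6, the LPS mouse at 35.3, limma called Krt78 higher in TNF-deficient LPS mice (adjusted p = 0.0143). Krt80, found in late differentiation, moved from 258, 290.1, 284 and 243 to 177, 233, 222 and 188 (−0.40, SE 0.13, adjusted p = 0.0463). The Krt80 call ended in 6 of 14 alternatives, which were edgeR and leaving out mouse 1, 2, 3, 5 or 8 (adjusted p 0.0254 to 0.143 over the 14). Krt23 did not pass the test, with 155, 209, 177 and 125, then 135, 169, 151 and 159, then 163, 212, 192 and 282.

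Of the 4 simple keratins in skin, Krt8 was called with LPS and Krt7, Krt18 and Krt19 were not. All 4 had a low signal there: among the 15 tissues of PBS mice, skin ranked 13 for Krt7, Krt8 and Krt19 and 10 for Krt18. Mean Krt8 was 47.7 in skin, against 76.8 in muscle, 70.8 in spleen and 70.4 in heart. Which skin cells carried these simple keratins was not tested. Krt8 rose from 46.7, 51.4, 51.3 and 41.5 in PBS mice to 64.8, 78.5, 79.1 and 64.8 in LPS mice, with no overlap (0.58, SE 0.16, adjusted p = 0.0144; 0.0506 without mouse 4). It was 118, 112, 71.5 and 125 in TNF-deficient LPS mice, where mouse 11 alone fell within the LPS range (0.54 above LPS mice, adjusted p = 0.0741; 0.00788 without mouse 11). Krt19 was 9.07, 14.4, 14.7 and 15.7 in PBS mice and 11.4, 24.9, 24.7 and 21.6 in LPS mice, a difference of 0.55 that was not called (adjusted p = 0.188). In TNF-deficient LPS mice it reached 32.8, 33.9, 15.8 and 39.1, higher than in PBS mice by 1.07 (SE 0.28, adjusted p = 0.012, or up to 0.053 without mouse 1 or 12). Krt18 and Krt7 ranged from 8.20 to 21.6 and from 10.5 to 20.9 over the 12 skin libraries and were called in no comparison. Krt222 and Krt13 were close to the level of single counts, and Krt13 was the member of the 20 that did not pass the filter in skin.

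Krt6a and Krt16, known with Krt17 from wounded epidermis, were called by limma in no comparison. Krt6a was 60.3, 96.7, 101 and 69.4 in PBS mice, 63.6, 62.8, 71.6 and 62.6 in LPS mice, and 118, 77.0, 322 and 107 in TNF-deficient LPS mice. Every TNF-deficient mouse lay above every LPS mouse, but limma did not call the difference (1.02, SE 0.28, adjusted p = 0.0544). With edgeR on the recovered counts, or without mouse 10, it was called, with 0.0128 as the lower of the 2 adjusted p-values. Krt16 spread over 7.71 to 16.3, 1.96 to 56.3 and 7.10 to 79.7 in the 3 groups, and its difference between the LPS-treated genotypes was 0.64 (SE 0.65). Krtap3-2, a hair shaft protein, read 25.7, 25.1, 189.8 and 23.6 in TNF-deficient LPS mice against 16.4 to 54.0 in LPS mice.

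Mouse 11 held the highest skin value of Krt6a, Krt16, Krt17 and Krtap3-2. Its signal of Tchh, which encodes trichohyalin of the hair root sheath, was 3329, against 66.2, 37.1 and 72.6 in the other TNF-deficient LPS mice, 5.90 to 25.2 in PBS mice and 6.99 to 24.8 in LPS mice. The part of these values in the keratin differences was not tested, but Krt5, Krt14, Krt17 and Krt79 kept their calls without mouse 11 and without each other mouse in turn. Over these and the other alternatives, their highest adjusted p-values were 0.00214, 0.0288, 0.0174 and 0.0205.

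In the comparison of genotypes under LPS, 5 of the 19 members were higher in TNF-deficient mice (Krt5, Krt14, Krt15, Krt17 and Krt79) and 0 were lower, where 1.43% of genes were called higher and 1.36% lower. Without overlap, 6 of 19 lay above the LPS mice, against 4.44% of all genes. This comparison shares the LPS mice with the preceding one. Set against the PBS mice, TNF-deficient LPS mice had 6 keratins lower and 2 higher (5.12% and 6.79% of all genes), a comparison in which both genotype and treatment differ. The difference from PBS mice was −2.78 for Krt1, −1.33 for Krt5, −1.26 for Krt10, −1.24 for Krt77, −1.04 for Krt14 and −0.78 for Krt79. It was −0.14 for Krt17 (95% interval −0.44 to 0.17) and 0.00 for Krt15 (95% interval −0.36 to 0.37), neither called. Krt8 and Krt19 were the 2 that were higher.

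Ratios within a library set these patterns against each other without any scaling between mice. The signals are 3′ tag counts, so a ratio compares groups and is not a ratio of molecules. The ratio of Krt5 to Krt1 was 4.20 to 5.62 in PBS mice, 6.14 to 8.30 in LPS mice and 11.1 to 16.4 in TNF-deficient LPS mice, with no overlap between groups. The ratio of Krt10 to Krt1 rose from 23.9 to 30.1 in PBS mice to 53.9 to 74.5 in LPS mice, and was 54.1 to 101 in TNF-deficient LPS mice. Every treated mouse lay above every PBS mouse in this ratio. In 8 two-sided exact permutation tests of log2 ratios, chosen after the values were seen, the 3 non-overlapping differences (0.61 and 0.86 for Krt5 to Krt1, 1.27 for Krt10 to Krt1) had p = 0.0286, the smallest that 4 against 4 mice allow, and 0.0762 after adjustment over the 8. The ratio of Krt14 to Krt5 was 0.822 to 0.906, 0.904 to 1.40 and 1.00 to 1.24 (exact permutation p = 0.0857 for LPS against PBS).

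**Figure D2:**
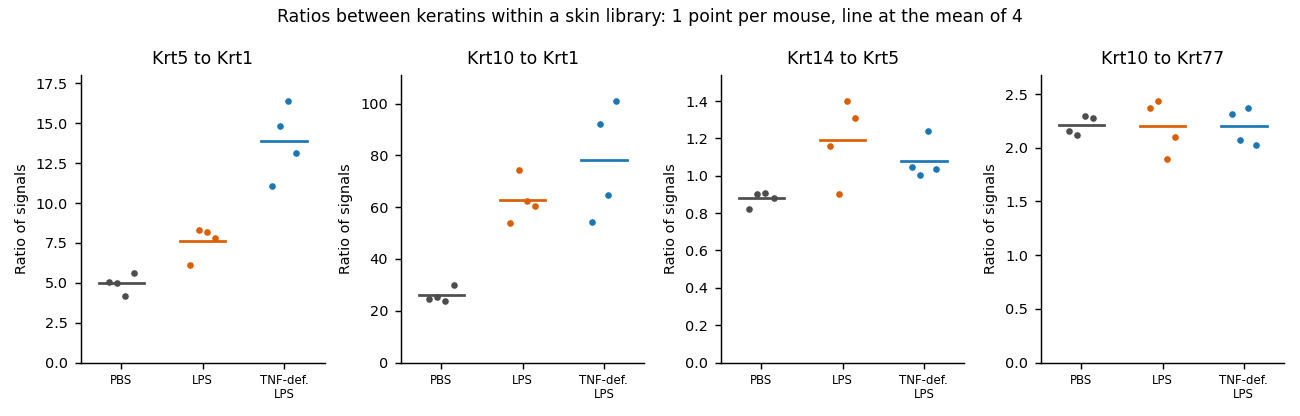
Ratio of 2 keratin signals within a skin library (vertical axes, linear from 0) by group (horizontal axes), 1 point per mouse with a line at the mean of 4. The ratio of Krt5 to Krt1 steps up from group to group with no overlap, and the ratio of Krt10 to Krt77 keeps means of 2.21, 2.20 and 2.20.

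Genes of the structures around keratin filaments were called in part, and their counts are set against the 8.46% of all skin genes lower with LPS and the 1.43% higher between the genotypes. Of 13 desmosome genes tested, whose products anchor keratin filaments between cells, 9 fell with LPS and 0 rose, with a median of −0.76 against −0.01 for all genes. Desmocollin Dsc1 fell by 1.70 (adjusted p = 6.1e-06), the linker Evpl by 1.44 (adjusted p = 1.71e-07) and desmoglein Dsg1a by 1.26 (adjusted p = 4.65e-06). In TNF-deficient LPS mice 5 of the 13 were higher than in LPS mice, led by Dsg2 (1.02, adjusted p = 0.0408). Cornified envelope genes, which build the dead outer layer, were less uniform: 10 of 30 fell with LPS and 1 rose (median −0.44). The envelope precursor Ivl fell by 1.45 (adjusted p = 1.18e-05) and the crosslinker Tgm5 by 1.13, while the filaggrin relative Hrnr rose by 0.79. Lor, a major envelope protein, read 1955 to 3083 in PBS mice and 2192 to 2471 in LPS mice. Between the LPS-treated genotypes 4 of 30 were higher and 0 lower, including the envelope precursor Sprr1a (1.66) and the desquamation protease Klk7 (0.77).

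Of 12 hemidesmosome and basal layer genes, 5 fell with LPS and 0 rose, among them the epidermal 14-3-3 protein Sfn (−1.56), the keratin linker Plec (−0.98) and the laminin chain Lamb3 (−0.94). Lamb3 alone was called between the genotypes, by 1.14. Of 13 keratinocyte transcription factors 4 fell, led by Grhl3 (−1.24), Hes1 (−0.87) and Gata3 (−0.83). Trp63, which encodes the p63 factor needed for basal keratinocytes, was 159 to 213 in PBS mice, 146 to 211 in LPS mice and 175 to 230.4 in TNF-deficient LPS mice and was not called. Of 12 non-keratin genes listed for keratinocyte activation, 5 rose with LPS and 0 fell, where 9.46% of all skin genes rose and 8.46% fell. Lcn2 rose by 2.89, Slpi by 1.23 and Il1rn by 0.93. The other 2, S100a8 and S100a9, are also abundant in neutrophils. Which cells carried these rises was not tested. Lcn2 and Il1rn, which other cells also make, were lower again in TNF-deficient LPS mice (−0.69 and −0.89).

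Markers of other skin cells moved in the same libraries. Keratinocyte markers other than keratins were lower with LPS in 6 of 11 cases, and their summed signal was 10094 to 13080 in PBS mice, 7984 to 9343 in LPS mice and 7560 to 12761 in TNF-deficient LPS mice. Fibroblast markers were lower in 4 of 8 and higher in 1, with sums of 11119 to 16462, 7408 to 11842 and 4472 to 10034. Neutrophil markers were higher in 5 of 10, with sums of 234 to 262, 423 to 568 and 358 to 436. Skeletal muscle markers were called in 0 of 8 with LPS, and their sums were 14996 to 19024, 12042 to 18477 and 7287 to 15195. No marker of these 4 lists that was measured was at 0 throughout a group. The part of these shifts in the keratin differences was not tested.

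The LPS effect on keratins differed between tissues. In a joint fit of skin, kidney, lung, small intestine, colon and thymus, the 12 members with enough signal were read (limit given under processing). The change from PBS to LPS differed between tissues for 11 of these 12 (48.3% of all genes), the exception being Krt18. Between the LPS-treated genotypes, 5 of 12 differed between tissues (Krt5, Krt7, Krt8, Krt14 and Krt15), against 12.8% of all genes. Both shares of all genes include genes below that signal limit, so they are not a like-for-like background for the 12. Over the 14 tissues other than skin, PBS means had medians of 0.973% (Krt5), 0.9% (Krt10), 1.39% (Krt14), 1.65% (Krt15) and 1.08% (Krt77) of the skin mean. For these members the test mostly set skin against tissues of low signal. Whether that signal came from the tissues themselves was not tested.

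**Figure D3:**
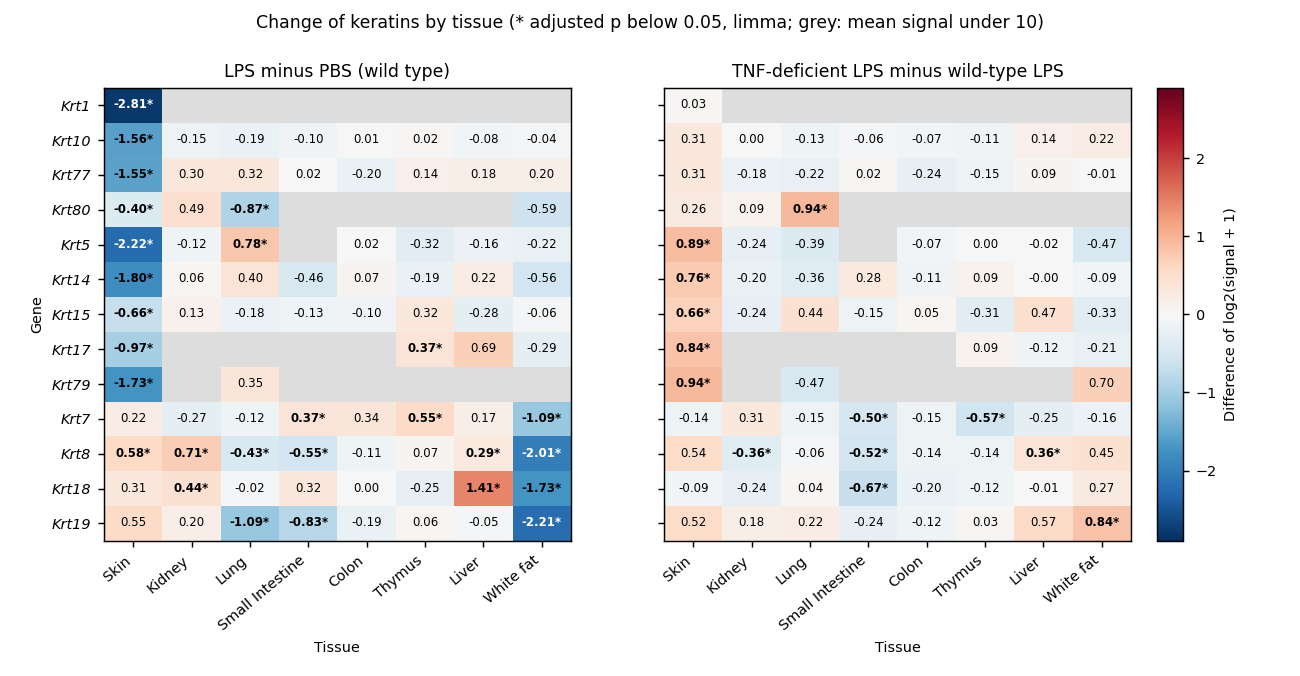
Difference of log2(signal + 1) for 13 keratins (rows) in 8 tissues (columns), LPS minus PBS at left and TNF-deficient LPS minus LPS at right, with asterisks at adjusted p below 0.05 and grey where the mean signal was under 10. Krt10 fell by 1.56 in skin and lies between −0.19 and 0.02 in the other 7 tissues, where its PBS mean was at most 1.19% of that in skin. Krt8 rises in some tissues and falls in others.

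In kidney the simple keratin pair rose. Krt8, carried by collecting ducts and induced in injured tubules, was 111, 146, 118 and 132 in PBS mice, 200.1, 195, 208 and 225 in LPS mice and 153, 190.5, 154 and 151 in TNF-deficient LPS mice. The 3 groups were separate. Krt8 rose by 0.71 with LPS (SE 0.10, adjusted p = 3.88e-06) and was lower by 0.36 in TNF-deficient LPS mice (a difference of −0.36, SE 0.10, adjusted p = 0.0156, or up to 0.0553 without mouse 8 or 12). Its partner Krt18 moved from 24.4, 29.0, 24.1 and 29.2 to 30.7, 28.8, 44.0 and 45.3 (0.44, SE 0.17, adjusted p = 0.042), with 1 LPS mouse inside the PBS range. The Krt18 call ended when the third group, or mouse 1, 3, 7 or 8, was left out (adjusted p up to 0.147). Of 17 members tested 2 rose and 1 fell, where 16.2% of all genes rose and 21.9% fell, so the members' share was below the background. The one that fell, Krt222, had a mean under 10.

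Krt7 in kidney passed no test. It was 66.3, 72.9, 73.1 and 67.7 in PBS mice, 60.7, 64.1, 47.7 and 61.0 in LPS mice, below all of them, and 74.5, 74.3, 69.1 and 70.9 in TNF-deficient LPS mice, above all LPS mice. The differences were −0.27 and 0.31 (adjusted p = 0.0716 and 0.0587). Without mouse 6 both were called (adjusted p = 0.0392 and 0.0293). Between the LPS-treated genotypes 1 of 17 members was lower and 0 higher (6.81% and 13.2% of all genes). Of 20 pan-epithelial genes in kidney, 9 rose with LPS and 2 fell, with the claudin Cldn4 at 1.58, the factor Elf3 at 1.30 and Cldn7 at 1.27, while the protease Prss8 was among the 2 that fell. In the same libraries all 8 proximal tubule markers and 7 of 9 collecting duct markers fell, the latter from a summed signal of 687 to 772 to one of 305 to 439, and the part of this in the keratin changes was not tested.

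In lung, Krt19 and Krt8 fell with LPS, and Krt18 and Krt7 were not called. Krt19, found in airway and alveolar type 1 cells, was 66.8, 79.6, 66.8 and 62.96 in PBS mice, 40.5, 24.9, 32.4 and 31.2 in LPS mice and 39.6, 32.8, 36.8 and 39.8 in TNF-deficient LPS mice. Every treated mouse lay below every PBS mouse (−1.09, SE 0.16, adjusted p = 4.27e-06). Krt8 fell from 184, 175, 165 and 183 to 129, 113, 152 and 132, and was 110.4, 147, 117 and 127 in TNF-deficient LPS mice (−0.43, SE 0.12, adjusted p = 0.00651). Krt18 averaged 50.1, 49.5 and 50.8 in the 3 groups (−0.02 with LPS, 95% interval −0.33 to 0.28). Krt7 averaged 143, 132 and 119 (−0.12 with LPS, 95% interval −0.36 to 0.12), and in TNF-deficient LPS mice against PBS mice it differed by −0.27 (95% interval −0.51 to −0.03, adjusted p = 0.132). Of 18 members 3 fell and 1 rose with LPS, near or below the 13.9% and 11.7% of all genes.

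Krt80 in lung split the LPS mice, with 56.9, 96.6, 28.6 and 29.6, against 81.0, 85.3, 91.9 and 84.8 in PBS mice and 68.5, 104, 99.1 and 94.6 in TNF-deficient LPS mice. Mouse 6 lay above every PBS mouse and the other 3 below (−0.87, SE 0.24, adjusted p = 0.00764). The lung library of mouse 6 held 519022 counts, the fewest of the 12 lung libraries. Between the genotypes Krt80 was the 1 member called (0.94, adjusted p = 0.0164, where 3.71% of all genes were higher), and the call ended without the third group or without mouse 7, 8, 10, 11 or 12 (adjusted p up to 0.0904). Krt5, a marker of airway basal cells, was 6.68, 6.95, 10.3 and 8.48 in PBS mice and 16.3, 13.2, 11.4 and 17.7 in LPS mice (0.78, adjusted p = 0.0392), and without mouse 1, 2, 4, 5 or 8 it was not called. Over the 14 tissues other than skin, mean Krt5 signal in PBS mice ran from 7.96 to 70.4, with a median of 13.9. Of 8 alveolar type 1 markers 6 fell with LPS and 1 rose, of 8 type 2 markers 7 fell and 1 rose, and 3 of 4 mesothelial markers fell, and their part in the fall of Krt19 and Krt8 was not tested.

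**Figure D4:**
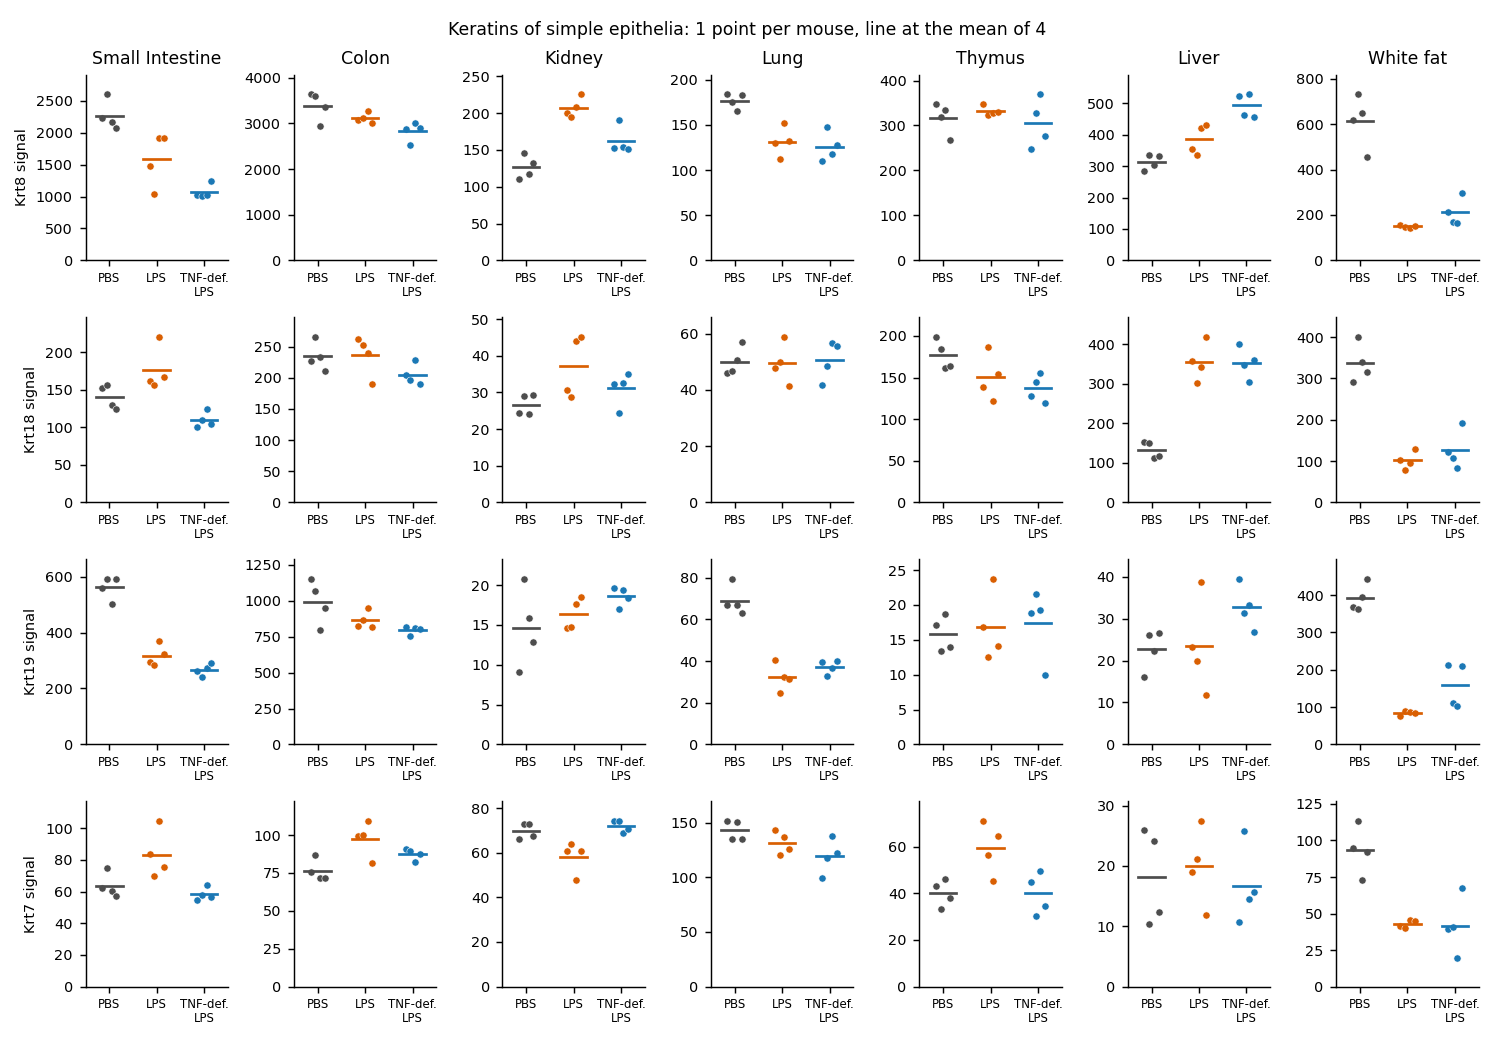
Signal of Krt8, Krt18, Krt19 and Krt7 (rows, vertical axes linear from 0) in 7 tissues (columns) for the 3 groups (horizontal axes), 1 point per mouse with a line at the mean of 4. In small intestine Krt19 drops from a mean of 562 to 318 and 268, while in kidney Krt8 climbs from 127 to 207 and stands at 162 in TNF-deficient LPS mice.

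In small intestine the 2 most abundant members fell. Krt8 was 2232, 2602, 2164 and 2083 in PBS mice, 1472, 1037, 1925 and 1913 in LPS mice and 1017, 1009, 1029 and 1248 in TNF-deficient LPS mice. It fell by 0.55 with LPS (SE 0.15, adjusted p = 0.00942), with no overlap. Krt19 fell from 559.7, 593, 502 and 592 to 294, 284, 370.0 and 322 (−0.83, SE 0.10, adjusted p = 3.68e-06) and was 263, 242, 274 and 292 in TNF-deficient LPS mice. Against PBS mice, the TNF-deficient LPS mice were lower by 1.08 for Krt8 and by 1.07 for Krt19 (log2 differences of −1.08 and −1.07). Among the 17 members, 2 fell and 1 rose with LPS (13.4% and 9.92% of all genes).

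Krt18 and Krt7 of the small intestine had a different order. Krt18 was 152, 157, 130.4 and 124 in PBS mice, 161, 156, 221 and 167 in LPS mice and 101, 110.3, 124 and 105 in TNF-deficient LPS mice. All TNF-deficient mice lay below all LPS mice (−0.67, SE 0.12, adjusted p = 0.00142), while the step from PBS to LPS was not called (0.32, adjusted p = 0.0651, and 0.0388 at its lowest over the alternatives). Krt7 rose from 62.0, 75.1, 60.1 and 57.4 to 83.7, 69.6, 105 and 75.4 (0.37, adjusted p = 0.0446) and was 54.5, 58.1, 63.8 and 56.4 in TNF-deficient LPS mice (−0.50 against LPS, adjusted p = 0.0253). The first Krt7 call ended without the third group or without mouse 1, 3, 4, 5, 7 or 8, and the second without mouse 5, 7, 9, 10 or 12 (adjusted p up to 0.172 and 0.0843). Between the genotypes 3 of 17 members were lower (Krt7, Krt8 and Krt18) and 0 higher, where 2.66% of all genes were lower and 4.47% higher. The Krt8 call there (−0.52, adjusted p = 0.0368) ended without the third group or without mouse 5, 7, 8, 9, 10 or 11 (adjusted p up to 0.153). In these libraries 9 of 14 enterocyte markers fell with LPS and 1 rose, with summed signal going from 23634 to 28244 down to 4950 to 14739, and 8262 to 14320 in TNF-deficient LPS mice. Of 20 pan-epithelial genes 6 fell, among them Cldn4 by 2.18, and 1 rose (Prss8, by 0.84). The part of these marker changes in the keratin changes was not tested.

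In colon, of 18 members 0 were called with LPS (17.2% of all genes in either direction) and 0 between the genotypes (3.84%). With LPS 3 had an unadjusted p below 0.05 and edgeR called 0, and between the genotypes both counts were 0. Krt8 was 3637, 3598, 2943 and 3352 in PBS mice, 3078, 3112, 3266 and 3007 in LPS mice and 2883, 2534, 3015 and 2896 in TNF-deficient LPS mice. The PBS and LPS ranges overlapped (−0.11, 95% interval −0.26 to 0.03). Krt7 was 75.6, 86.9, 71.98 and 71.8 in PBS mice, 99.6, 99.7, 109.5 and 81.3 in LPS mice and 90.9, 89.6, 82.1 and 87.5 in TNF-deficient LPS mice. Its difference with LPS was 0.34 (SE 0.12, adjusted p = 0.0554), close to the 0.37 of small intestine, and it was called at a mean signal of at least 5 and without mouse 2 or 8 (adjusted p as low as 0.0246). Krt19 was 1154, 1071, 797 and 951, then 823, 863, 952 and 816, then 815, 754, 810.4 and 802. Both were lower in TNF-deficient LPS mice than in PBS mice, Krt8 by 0.25 and Krt19 by 0.31 (log2 differences of −0.25 and −0.31, adjusted p = 0.0233 and 0.027, where 2.56% of all genes were lower). Neither call held without mouse 1, 2 or 10, and the Krt19 call was lost as well without mouse 9, 11 or 12 (adjusted p up to 0.135 and 0.148). Goblet cell markers fell with LPS in 5 of 8 cases in these libraries, where 7.76% of all genes were lower.

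In thymus, where keratins mark the epithelial cells that nurse developing T cells, 2 of 20 members rose with LPS and 0 fell (9.7% and 8.83% of all genes). Krt7 went from 42.9, 33.1, 46.1 and 37.8 to 71.1, 56.4, 45.3 and 64.6, and was 44.9, 30.5, 49.7 and 34.7 in TNF-deficient LPS mice. It was higher in LPS mice than in either other group (0.55, SE 0.17, adjusted p = 0.0147, and −0.57, SE 0.17, adjusted p = 0.036, where 2.16% of all genes were lower), although mouse 7 lay within both ranges. The first call ended without mouse 2, 5 or 8 and the second without mouse 5, 8, 10 or 12 (adjusted p up to 0.0853 and 0.179). Krt17 read 66.1, 68.3, 90.5 and 81.0, then 109, 91.7, 79.3 and 119, then 116, 114, 115 and 81.2 (0.37 with LPS, adjusted p = 0.0457), a call that ended with a pseudocount of 0.25, with no filter and without mouse 1, 2, 5 or 8 (up to 0.201).

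The main thymic keratins were not called with LPS. Krt8 averaged 317, 332 and 305, Krt18 averaged 177, 150.4 and 137, and Krt14 averaged 46.8, 40.3 and 43.4 in the 3 groups. Krt18 differed by −0.25 with LPS, and limma called its difference without mouse 6 (adjusted p = 0.0303). Krt5, the keratin of medullary epithelium, was 63.5, 82.8, 63.003 and 72.4 in PBS mice, 67.4, 55.6, 44.2 and 58.5 in LPS mice and 56.5, 48.4, 67.6 and 52.5 in TNF-deficient LPS mice (−0.32, 95% interval −0.62 to −0.03, adjusted p = 0.129). In TNF-deficient LPS mice Krt18 was lower than in PBS mice by 0.37 (a difference of −0.37, adjusted p = 0.0273; 4.99% of all genes were lower) and Krt17 was higher by 0.47 (adjusted p = 0.0144; 7.15% were higher). These calls ended without mouse 1, 2, 9 or 12 for Krt18 and without mouse 1, 2, 9, 10 or 11 for Krt17 (adjusted p up to 0.128 and 0.0767). Other genes of thymic epithelium did change: 6 of 11 fell with LPS and 1 (Epcam) rose. Psmb11, the proteasome subunit of cortical epithelium, fell by 3.48, Tbata by 1.68 and the chemokine Ccl25 by 1.53. All 12 thymocyte markers fell with LPS, from a summed signal of 6123 to 6732 to one of 2722 to 4091, and stood at 4737 to 5916 in TNF-deficient LPS mice. The part of that shift in Krt7 and Krt17 was not tested.

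White fat and liver were added after their values had been seen. In white fat, whose depot the labels do not name, 4 of 17 members fell with LPS and 0 rose (6.24% and 7.49% of all genes). Krt8 was 619.7, 731, 651 and 457 in PBS mice, 157, 149, 143 and 151 in LPS mice and 211, 171, 165 and 296 in TNF-deficient LPS mice, a fall of 2.01 with LPS (log2 −2.01, SE 0.16, adjusted p = 2.68e-09 by limma). Krt19 was 369, 363, 395 and 444, then 76.6, 89.5, 85.7 and 84.4, then 212, 112, 103 and 211. It fell by 2.21 with LPS (SE 0.19, adjusted p = 6.1e-09) and was higher by 0.84 in TNF-deficient LPS mice (adjusted p = 0.0132, where 0.79% of all genes were higher; up to 0.0604 without mouse 5, 9 or 12). Krt18 and Krt7 fell by 1.73 and 1.09. Of 20 pan-epithelial genes in the same libraries, 0 were called with LPS by limma, with a median of −0.22. The claudin Cldn4 averaged 33.5, 18.1 and 14.8 in the 3 groups (−0.87 with LPS, adjusted p = 0.0927), Cldn3 averaged 77.7, 54.7 and 58.0 (−0.45), and Cldn7 averaged 55.7, 42.3 and 34.5 (−0.38). Against PBS mice, Cldn4 and Cldn7 were lower in TNF-deficient LPS mice (adjusted p = 0.0174 and 0.0359). Epcam read 125 to 289 in PBS mice, 177 to 192 in LPS mice and 142 to 282 in TNF-deficient LPS mice. The 4 measured mesothelial markers summed to 16.4 to 22.2, 14.8 to 19.2 and 10.96 to 21.7. Adipoq, the adipocyte hormone adiponectin, was 1004 to 1510.0 in PBS mice, 542 to 735 in LPS mice and 297 to 503 in TNF-deficient LPS mice. Which cells of the fat pad carried these keratins was not tested.

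In liver, where Krt8 and Krt18 are the keratins of hepatocytes, the pair moved unequally. Krt18 was 152, 151, 113 and 116 in PBS mice, 357, 302, 343 and 419 in LPS mice and 400.1, 348, 303 and 361 in TNF-deficient LPS mice. It rose by 1.41 with LPS (SE 0.13, adjusted p = 3.92e-10), and the 2 treated groups overlapped. Krt8 was 284, 335, 305 and 333, then 354, 334, 420.2 and 432, then 525, 465, 529 and 458. Its rise with LPS was 0.29 (adjusted p = 0.0487, up to 0.168, lost with edgeR, without the third group and without mouse 1, 3, 4, 7 or 8), and it was higher by 0.36 in TNF-deficient LPS mice (adjusted p = 0.0289, up to 0.106 without mouse 5, 6, 9 or 11; 5.96% of all genes were higher). With LPS 2 of 19 liver members rose and 0 fell, where 11.6% of all genes rose and 13.5% fell.

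Krt10 and Krt77 had a low signal in each of the 14 tissues other than skin, including those with no squamous epithelium. In PBS mice the mean Krt10 signal of the 14 tissues other than skin ran from 38.0 (bone marrow) to 88.7 (liver), which is 0.509% to 1.19% of its skin mean, and it was above 0 in all 56 libraries. For Krt77 it ran from 22.2 to 53.8, or 0.656% to 1.59%. Krt1 stayed between 0.305% and 1.41%, and Krt78 was above 0 in 29 of the 56 libraries. Krt5, Krt14 and Krt15 were also above 0 in all 56 libraries, and their lowest tissue means were 0.556%, 0.793% and 0.955% of those in skin. The median over the 14 tissues was 67.2, 60.3 and 61.8 for Krt10 and 36.6, 39.1 and 33.9 for Krt77 in the 3 groups. Whether this signal came from the tissues themselves was not tested. Other members reached higher shares in single tissues, such as Krt17 in thymus (28.6% of its skin mean), Krt80 in lung (31.9%) and Krt14 in white fat (5.39%).

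**Figure D5:**
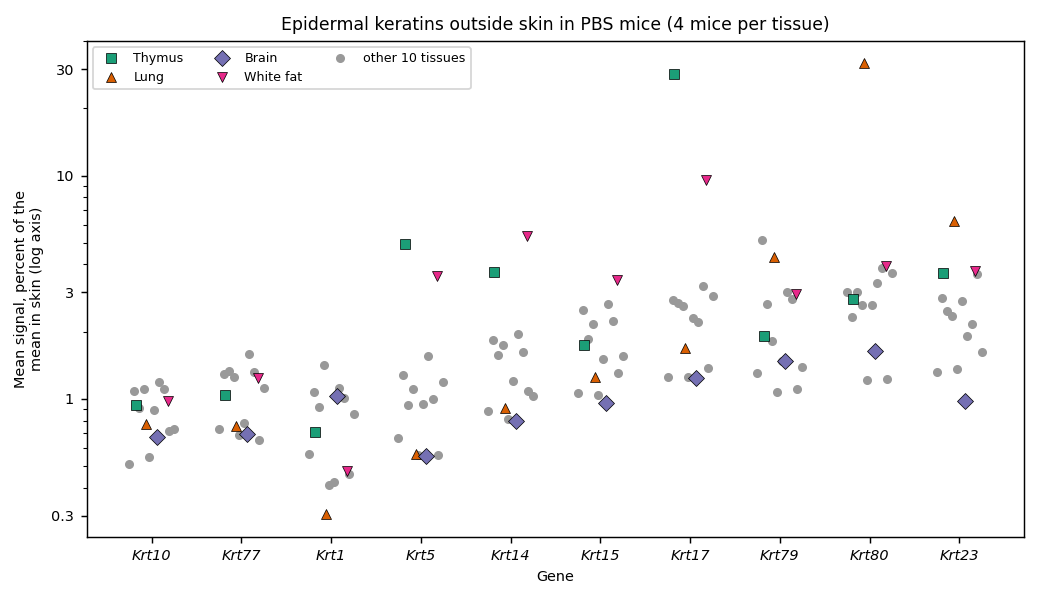
Mean signal of 10 epidermal keratins in the 14 tissues other than skin of PBS mice, as a percent of the skin mean (vertical axis, log scale), 1 point per tissue (mean of 4 mice). Krt10 and Krt77 lie within 0.509% to 1.59% everywhere, while Krt80 in lung (31.9%) and Krt17 in thymus (28.6%) stand apart.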

How the data were processed

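The table holds 3′ tag RNA sequencing of 180 libraries (15 tissues of 12 mice), primed with anchored oligo(dT) and carrying a sample barcode and a molecular identifier, per the labels' protocols. Whether identifiers were collapsed, and the aligner, are not given in the sources used here. FastQC, MultiQC, edgeR and the mm10 build are named in the submitters' processing notes. The deposited values are named CPM but sum to 703679 to 1152360 per library in the 6 tissues, so they are treated as a normalized signal, made by the authors from counts. Dividing by the step of each library gave back whole counts for 100% of values, and intervals or counts from them cover counting error only.

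In each tissue, genes reaching a signal of 1 in 4 or more of the 12 libraries were tested on log2(signal + 1) with limma 3.58.1 (R 4.3.3), trended and with all 3 groups sharing 1 estimate of the spread, at an adjusted p of 0.05. Differences between tissues came from a joint fit of 6 tissues with a moderated F test. Members were read from it only where their mean signal reached 10 in 2 or more tissues. The shares of all genes set beside them cover 13793 genes without that limit. Mice with the same number never recur across groups, so only tissues of 1 mouse could be paired, and their deviations from group means correlated with a median r of 0.0409 (−0.111 to 0.348 over 180 pairs, 33 above 0.1). Alternatives were another pseudocount (0.25), no filter, a mean of at least 5, median-of-ratios scaling, edgeR 4.0.16 on the recovered counts, 2 groups only, the mouse as a block, and leaving out each mouse. On simulated skin counts (13039 genes) the test recovered 78.4% of 88 genes changed by a log2 of 1 and 100% of 112 changed by 2, with 9 false calls. The simulation had 2 groups, 1 fixed dispersion for every gene, and changes only in genes with a PBS mean of at least 10. Recovery and false calls for genes that vary more between mice, or have less signal, were not measured. Members, lists and tissues were chosen with earlier results of these data known. Always named were the main keratins; others were named when called with a mean of at least 10, and per list the 3 largest calls and any against the list. Liver, white fat and the ratio tests were added after the values were seen. The gene lists share some members. Promoter motifs were searched in Python 3.11.15. The limma p-values weigh a difference against the spread between the mice sampled.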

Additional observations from a re-analysis of the deposited data

Results flagged for a closer look

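A single mouse stood far from the other 3 of its group in 14 of 258 groups of 4 examined by Dixon's gap ratio at its 95% critical value, where chance gives about 1 in 20. In skin these were Krt6a in LPS mouse 7 (71.6, the others 62.6 to 63.6) and in TNF-deficient LPS mouse 11 (322, the others 77.0 to 118), Krtap3-2 in the same mouse 11 (189.8, the others 23.6 to 25.7), and Krt78 in LPS mouse 6 (35.3, the others 13.0 to 16.3). In lung they were Krt13 in LPS mouse 8 (104, the others 0) and Krt15 in PBS mouse 1 (21.7, the others 16.4 to 17.0). Krt13 is a keratin of the esophagus and mouth lining, and the lung of mouse 8 also had the highest Krtdap signal of the 4 (80.2, the others 23.5 to 38.1).

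In kidney they were Krt8 in TNF-deficient LPS mouse 10 (190.5, the others 151 to 154) and Krt14 in LPS mouse 6 (10.9, the others 16.9 to 17.5). In small intestine, Krt8 stood apart in TNF-deficient LPS mouse 12 (1248, the others 1009 to 1029), Krt10 in TNF-deficient LPS mouse 9 (41.3, the others 50.01 to 50.9) and Krt18 in LPS mouse 7 (221, the others 156 to 167). In thymus they were Krt10 in LPS mouse 5 (106, the others 58.5 to 65.0), Krt14 in TNF-deficient LPS mouse 11 (31.0, the others 46.5 to 49.3) and Krt17 in TNF-deficient LPS mouse 12 (81.2, the others 114 to 116).

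The change from PBS to LPS differed between the 6 tissues for 11 members, by the moderated F of a joint limma fit. The largest were Krt5 (F = 24.7, adjusted p = 5.65e-13), Krt10 (F = 18.1, adjusted p = 2.46e-10), Krt77 (F = 17.6, adjusted p = 3.85e-10), Krt8 (F = 16.9, adjusted p = 7.9e-10) and Krt14 (F = 15.8, adjusted p = 2.52e-09). Then came Krt19 (F = 10.6, adjusted p = 1.03e-06), Krt79 (F = 5.36, adjusted p = 0.00117) and Krt7 (F = 4.72, adjusted p = 0.00292). Near the threshold lay Krt15 (F = 3.13, adjusted p = 0.0293), Krt17 (F = 3.12, adjusted p = 0.0297) and Krt80 (F = 2.95, adjusted p = 0.038). Between the LPS-treated genotypes the difference varied by tissue for Krt8 (F = 8.29, adjusted p = 0.000171), Krt5 (F = 5.37, adjusted p = 0.00588), Krt7 (F = 4.72, adjusted p = 0.0123), Krt15 (F = 4.41, adjusted p = 0.0179) and Krt14 (F = 4.24, adjusted p = 0.022). For Krt5, Krt10, Krt14, Krt15 and Krt77 these tests mostly set skin against tissues of low signal, as described above.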

How the results depend on the processing

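Of 68 calls of single members in 8 tissues, 43 held under all alternatives run, 25 were lost under at least 1, and 0 changed direction. Counts of called members that moved by more than 1.5 times, or to or from 0, were these. Requiring a mean signal of at least 5 gave 2 in kidney between the genotypes under LPS (1 as reported), 1 in kidney for TNF-deficient LPS against PBS mice (2 as reported) and 1 in colon for LPS against PBS (0 as reported). A pseudocount of 0.25 gave 1 in kidney for TNF-deficient LPS against PBS mice and 1 in thymus for LPS against PBS (2 as reported), and no filter also gave 1 in thymus. Fitting 2 groups only gave 0 in lung between the genotypes (1 as reported). In liver, LPS against PBS gave 1 with edgeR and 1 with 2 groups only (2 as reported). Smaller moves included 10 in skin with LPS under edgeR (11 as reported), 4 in skin between the genotypes with no filter and with 2 groups only (5 as reported), 5 in lung with LPS with no filter (4 as reported) and 3 in thymus with LPS under edgeR. At a pseudocount of 0.25, 9 members differed between tissues in the LPS effect (11 as reported). The scalings moved the median of all genes by less than 0.1 in each tissue.

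Leaving out each mouse in turn gave the following lowest and highest counts for LPS against PBS, the genotypes under LPS, and TNF-deficient LPS against PBS. They were 10 to 11, 4 to 6 and 7 to 9 in skin. They were 2 to 4, 0 to 2 and 0 to 2 in kidney, and 3 to 4, 0 to 2 and 2 in lung. Small intestine gave 2 to 5, 1 to 3 and 2 to 3, and colon gave 0 to 1, 0 and 0 to 2. Thymus gave 0 to 3, 0 to 1 and 0 to 2. Liver gave 1 to 2, 0 to 1 and 2, and white fat gave 4, 0 to 1 and 4 to 6. The members that differed between tissues numbered 8 to 11 (fewest without mouse 3 or 5) and 3 to 6 (fewest without mouse 7, 9, 11 or 12). With the mouse as a replicate block, they numbered 11 and 5, as without it. Without mouse 6, all genes called between the LPS-treated genotypes rose from 373 to 701 in skin and from 2651 to 3313 in kidney. They rose from 793 to 1348 in lung and from 514 to 835 in colon, whereas leaving out any other mouse lowered them. The cause of these shifts was not tested. Low counts limit members under a signal of about 10, where 1 count is worth 0.428 to 1.72.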
